A study of Oryza sativa with 7 samples.

Results

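Transcripts of 3 genes of the apoplastic sugar route were followed in young rice caryopses. They were CIN2 (row Os04g0413500, also known as GIF1), which encodes a cell wall invertase, and MST4 and MST6, which encode monosaccharide transporters of the plasma membrane. The genes were chosen by name, as the rows Os04g0413500, MST4 and MST6 of a table of 35825 genes, and all 3 passed the expression filter of a mean of at least 1 RPKM (reads scaled by the length of the gene model and the total of the library). Messenger RNA came from caryopses of field-grown rice of cultivar Kitaake, collected 2 days after fertilization. The groups were the mutant alleles osbzip76-1 (2 libraries) and osbzip76-2 (1 library), set against the wild type, WT (3 libraries). The alleles are independent mutations of OsbZIP76, which encodes a bZIP transcription factor studied for its role when the syncytial endosperm forms cell walls. All groups grew in a hot summer, in which, by the series description, cellularization came early in WT and mutant grains alike. The labels give no other treatment, and neither the kind of lesion nor the number of grains or plants per library. They name the tissue as caryopsis, while the extraction protocol speaks of endosperm. A second osbzip76-2 library listed in the labels was not analysed here.

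Sucrose reaches the rice grain through maternal vascular tissue, which has no symplastic link to the endosperm, so it must cross the cell wall space (the apoplast) between them. There a cell wall invertase can split it into glucose and fructose, and proton-coupled monosaccharide transporters of the MST family carry these hexoses into cells. GIF1 was named for a grain filling mutant of rice in which this invertase is defective. Sucrose can also be taken up whole by sucrose transporters, so that the hexose route is one of several into the filling grain.

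The libraries held between 19900850 and 24887952 reads, recovered from the steps of the RPKM values. WT replicate 2 stood apart from the other 5 libraries on the first principal component (-61.3, against -2.97 to 30.5), an axis with 45.3% of the variance. On it the osbzip76-2 library, at 5.48, lay nearer WT replicates 1 and 3 (-2.97 and 0.935) than the osbzip76-1 libraries (27.3 and 30.5). Of the tissue markers, 4 endosperm genes could be found by symbol, AGPL2, AGPS2, RISBZ1 and DOF3, and all were detected. Their summed level was 307 to 336 RPKM in the 3 mutant libraries, against 77.6 to 156 RPKM in the 3 WT libraries, with the lowest value in WT replicate 2. This sum moved with the genotype in the comparisons with WT, and its part in the results below was not tested. It did not set the alleles apart: at 320 RPKM, the osbzip76-2 library lay between the osbzip76-1 libraries. AGPL2 was the largest part of the sum, with 167 to 193 RPKM in mutant libraries. RISBZ1 went the other way within WT, with its highest WT value, 2.74 RPKM, in replicate 2. The embryo marker OSH1 stood at 4.11 to 7.56 RPKM in mutant and 3.00 to 6.08 RPKM in WT libraries. No marker of nucellus, seed coat, green pericarp or aleurone was found by symbol. In whole caryopses, fewer cells of a type and less RNA per cell cannot be told apart.

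CIN2 was the abundant gene of the 3 and stood lower in every mutant library than in every WT library. It had 135 and 166 RPKM in osbzip76-1 replicates 1 and 2 and 151 RPKM in the osbzip76-2 library, against 233, 266 and 204 RPKM in WT replicates 1 to 3. The groups did not overlap, with a gap between the highest mutant library, at 166 RPKM, and the lowest WT library, at 204 RPKM. Groups apart in that direction were seen for 12.3% of all genes tested, so this alone does not single out CIN2. The mutants averaged 151 ± 15 RPKM and WT 234 ± 31 RPKM (SD, n = 3 each), a ratio of 0.644. On the log2(RPKM + 1) scale the difference was -0.63 (SE 0.14, 95% interval -0.96 to -0.30). It had an unadjusted limma p of 0.00244 and did not pass when adjusted over all genes (limma adjusted p = 0.138).

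The spread of CIN2 came from the libraries and hardly from counting. Each library held 5618 to 12508 reads of the gene. The coefficient of variation was 10.3% among the mutant and 13.4% among the WT libraries, where counting alone gives 1.21% and 0.929%. WT replicate 2, the library that stood apart, had the highest CIN2 level of all. Without it the log2 fold change was -0.53 (limma adjusted p = 0.147). By rank within a library, CIN2 was the gene number 594 to 729 in the mutants and 284 to 410 in WT.

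**Figure D1:**
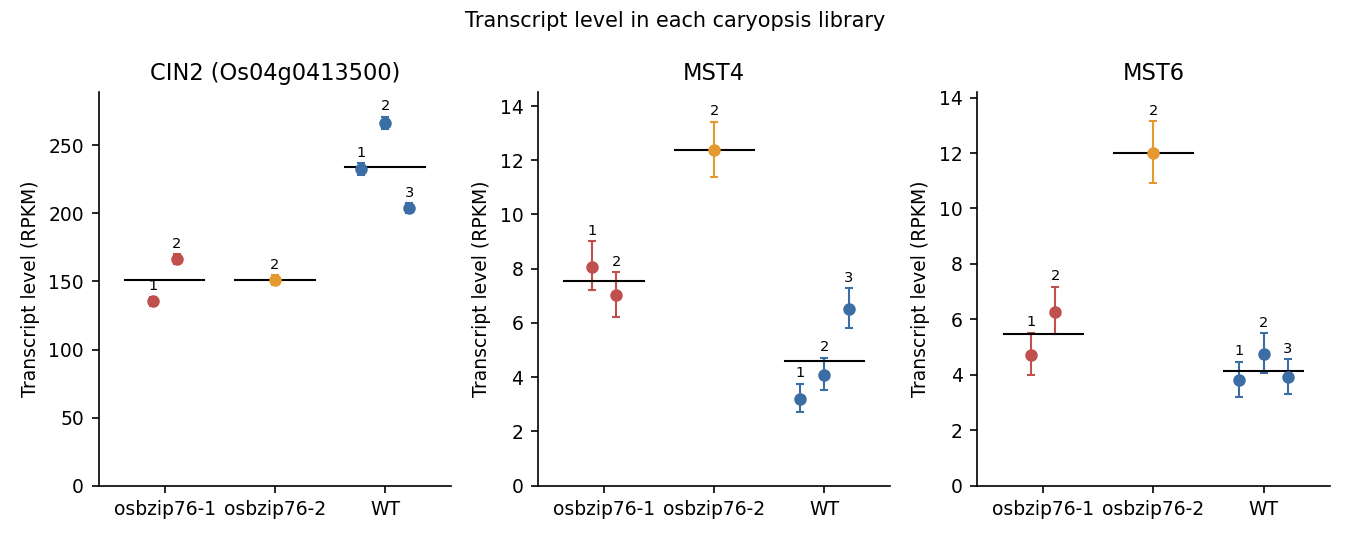
Transcript level (RPKM, vertical axes from 0) of CIN2, MST4 and MST6 in each library of osbzip76-1, osbzip76-2 and WT. Points are libraries with their replicate number, bars are exact 95% binomial intervals of the read counts (counting error only), and black lines are group means (a single library for osbzip76-2). The CIN2 points of the mutants lie between 135 and 166 RPKM, all under those of WT, and the osbzip76-2 point is the highest for both MST4 and MST6.

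MST4, a hexose transporter, stood higher in the mutants, but its lowest mutant and highest WT library were close. It had 8.07 and 7.01 RPKM in osbzip76-1 replicates 1 and 2 and 12.4 RPKM in osbzip76-2, against 3.21, 4.09 and 6.52 RPKM in WT replicates 1 to 3. The groups did not overlap, as for 9.34% of all genes tested in that direction. The gap rested on osbzip76-1 replicate 2, with 293 reads, and WT replicate 3, with 321 reads. Their exact 95% intervals, 6.23 to 7.87 RPKM and 5.82 to 7.27 RPKM, overlapped, so the separation of these 2 libraries was within counting error. The means were 9.15 ± 2.84 RPKM in mutant and 4.60 ± 1.71 RPKM in WT caryopses (SD, n = 3 each), a ratio of 1.99. The log2 fold change was 0.87 (SE 0.27, 95% interval 0.25 to 1.48), with an unadjusted limma p of 0.0125 and a limma adjusted p of 0.243. Without WT replicate 2 it was 0.82 (limma adjusted p = 0.281).

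MST6, which carries a broad range of monosaccharides in rice, was set apart mostly by the osbzip76-2 library. It had 4.70 and 6.28 RPKM in osbzip76-1 replicates 1 and 2 and 12.0 RPKM in osbzip76-2, against 3.80, 4.74 and 3.91 RPKM in WT replicates 1 to 3. The mutants and WT overlapped, since osbzip76-1 replicate 1 lay just under WT replicate 2. The means were 7.66 ± 3.84 RPKM in mutant and 4.15 ± 0.51 RPKM in WT caryopses (SD, n = 3 each), a ratio of 1.84. The log2 fold change was 0.66 (SE 0.29, 95% interval -0.0038 to 1.33), with an unadjusted limma p of 0.0510 and a limma adjusted p of 0.367. Without the osbzip76-2 library the log2 fold change was 0.33 (limma adjusted p = 0.460), and without WT replicate 2 it was 0.74 (limma adjusted p = 0.335).

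Read together, none of the 3 genes passed the threshold of 0.05 with both alleles against WT, where 0.387% of all genes tested did. At an unadjusted limma p under 0.05 stood 2 of the 3, CIN2 and MST4, beside 13.7% of all genes, and voom on the recovered reads also called 0 of 3, beside 0.2% of all genes. In size, the fold change of CIN2 was far out in the distribution: 1.63% of the genes tested had a lower one. For MST4 97.9% and for MST6 96.4% of the genes had a lower one. With a pseudocount of 0.1 these shares were 3.39%, 97.2% and 95.6%, and with voom 3.44%, 97.1% and 95.8%. The shares thus depended on the scale used. The scatter left by the fit differed between the 3 genes. This fit pools the alleles, so a difference between them counts as scatter. CIN2 had a residual SD of 0.17 on the log2(RPKM + 1) scale, larger than that of 40.1% of the genes. The residual SDs of MST4 and MST6, 0.41 and 0.44, were larger than those of 88.2% and 90.7%. With the alleles fitted apart, where the single osbzip76-2 library adds no scatter, the order changed. The residual SDs were then 0.20 for CIN2, 0.36 for MST4 and 0.18 for MST6, larger than those of 51.4%, 83.6% and 46.6% of the genes.

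**Figure D2:**
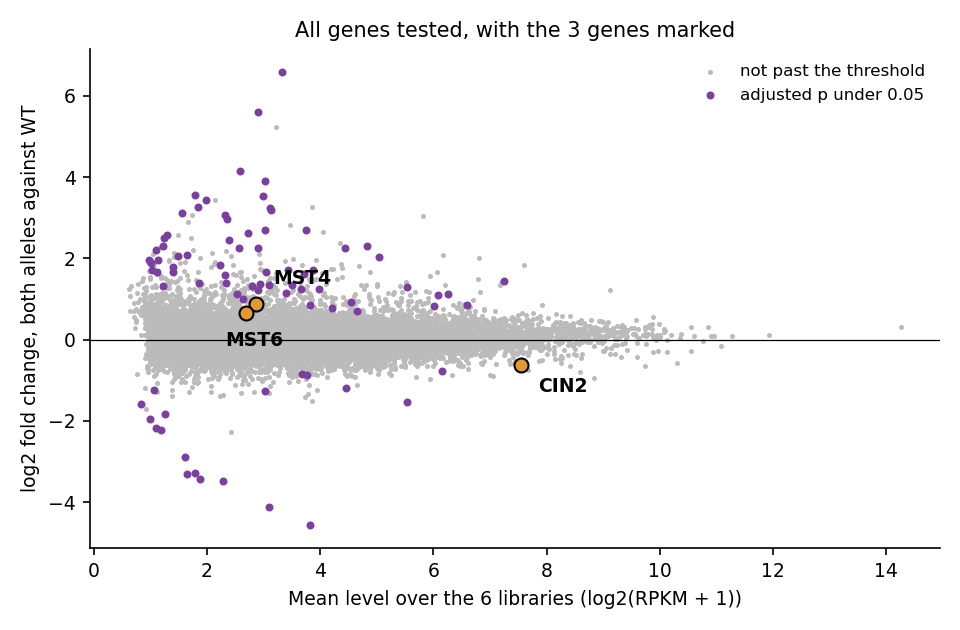
Log2 fold change of both alleles against WT (vertical axis, log2(RPKM + 1) scale) by mean level over the 6 libraries (horizontal axis, log2(RPKM + 1)) for the 21454 genes tested. Purple points passed an adjusted p of 0.05, and orange points mark the 3 genes: CIN2 at -0.63 is below most genes of its level, MST4 at 0.87 and MST6 at 0.66 are above, and none of them is among the genes that passed.

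By allele, the level of CIN2 was 151 RPKM in both. In osbzip76-1 it averaged 151 ± 22 RPKM (SD, n = 2), and the osbzip76-2 library had 151 RPKM with a counting interval from 148 to 154 RPKM. The log2 fold change against WT was -0.63 (SE 0.17, limma adjusted p = 0.211) in osbzip76-1 and -0.62 (SE 0.21, limma adjusted p = 0.537) in osbzip76-2. The difference of osbzip76-2 from osbzip76-1 was 0.0095, with a 95% interval from -0.53 to 0.55, which leaves room for differences in either direction. Both alleles were set against the same 3 WT libraries, so these fold changes are not independent of each other. With 1 osbzip76-2 library, every comparison with that allele borrowed its error from the spread of the osbzip76-1 and WT libraries.

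The transporters stood higher in osbzip76-2 than in osbzip76-1. MST4 averaged 7.54 ± 0.75 RPKM in osbzip76-1 (SD, n = 2), with a log2 fold change against WT of 0.65 (SE 0.26, limma adjusted p = 0.337). In the osbzip76-2 library its log2 fold change was 1.30 (SE 0.33, limma adjusted p = 0.262), and the difference of osbzip76-2 from osbzip76-1 was 0.65 (95% interval -0.17 to 1.47). MST6 averaged 5.49 ± 1.11 RPKM in osbzip76-1 (SD, n = 2), with a log2 fold change of 0.33 (SE 0.18, limma adjusted p = 0.455). It was 0.50 without osbzip76-1 replicate 1 and 0.15 without osbzip76-1 replicate 2 (limma adjusted p = 0.800 and 0.902), so this value rested on which osbzip76-1 library was kept. In the osbzip76-2 library the log2 fold change was 1.34 (SE 0.23, limma adjusted p = 0.0810), the value closest to the threshold among the 3 genes. The difference of osbzip76-2 from osbzip76-1 for MST6 was 1.01 (95% interval 0.43 to 1.59), with an unadjusted limma p of 0.00453 and a limma adjusted p of 0.410. Among all genes at an unadjusted limma p under 0.05 between the alleles, more stood higher than lower in osbzip76-2. A deviation of the 1 osbzip76-2 library and an effect of the allele cannot be told apart.

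With osbzip76-1 against WT 0 of 3 genes passed, beside 0.382% of all genes, and 2 of 3 had an unadjusted limma p under 0.05, beside 13.9%. Voom called 0 of 3, beside 0.228% of all genes. With osbzip76-2 against WT 0 of 3 passed, beside 0.69% of all genes, and all 3 had an unadjusted limma p under 0.05, beside 7.06%. Voom called 1 of 3, MST6, beside 0.811% of all genes. Between the alleles 0 of 3 passed, beside 0.214% of all genes, and 1 of 3, MST6, had an unadjusted limma p under 0.05, beside 4.92%. Voom called 0 of 3, beside 0.0979% of all genes. The call of MST6 in osbzip76-2 depended on the processing. Its limma adjusted p was 0.0143 without WT replicate 2, 0.0046 with array weights and 0.0414 with voom, and ranged from 0.0046 to 0.288 over 12 alternatives.

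**Figure D3:**
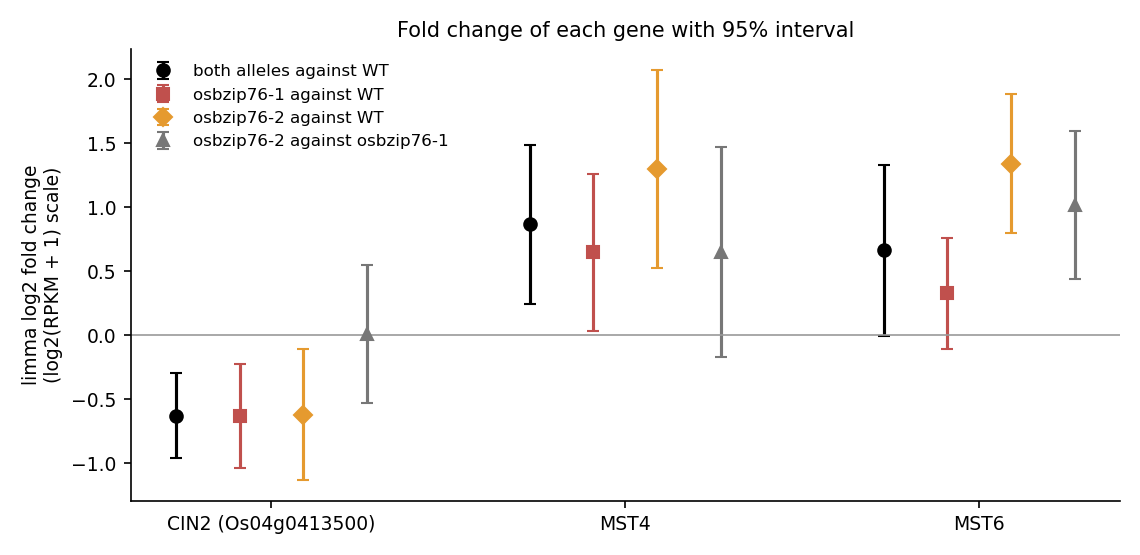
limma log2 fold changes (vertical axis, log2(RPKM + 1) scale) of CIN2, MST4 and MST6 for both alleles, osbzip76-1 and osbzip76-2 against WT and for osbzip76-2 against osbzip76-1, with 95% intervals. The 3 CIN2 values against WT lie between -0.62 and -0.63, while those of MST4 and MST6 are largest for osbzip76-2, at 1.30 and 1.34.

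The balance of invertase and transporter transcripts was read from ratios within a library, which do not depend on how that library was scaled. The CIN2 level was 16.8 and 23.7 times that of MST4 in osbzip76-1 replicates 1 and 2 and 12.2 times in osbzip76-2, against 72.5, 65.2 and 31.3 times in WT replicates 1 to 3. Of the WT libraries, replicate 3 came closest to the mutants. The CIN2 level was 28.8, 26.5 and 12.6 times that of MST6 in the same mutant libraries, against 61.1, 56.2 and 52.1 times in WT. Both ratios set the groups apart. The highest mutant and lowest WT ratios were 23.7 and 31.3 to MST4, and 28.8 and 52.1 to MST6. The ratios are built from the levels given above, so this separation is not a further result. How often ratios of other genes set the groups apart was not computed. The mean log2 ratio of CIN2 to MST4 was 4.08 ± 0.48 in the mutants and 5.72 ± 0.66 in WT (SD, n = 3 each), a difference of -1.64. For CIN2 to MST6 it was 4.41 ± 0.66 in the mutants and 5.82 ± 0.12 in WT, a difference of -1.41. In both cases the exact two-sided permutation p was 0.1, the smallest that 3 libraries against 3 can give, so the 0.05 level was out of reach.

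The transporters' own ratio did not separate the groups. MST6 stood at 0.582, 0.895 and 0.970 times MST4 in the mutants, against 1.19, 1.16 and 0.600 times in WT. WT replicate 3 and osbzip76-1 replicate 1 were alike in it and apart from the other 4 libraries. The difference of the mean log2 ratios was -0.24 (exact permutation p = 0.5). It was -0.010 without osbzip76-1 replicate 1, -0.067 and -0.083 without WT replicates 1 and 2, and -0.56 without WT replicate 3. Without osbzip76-2 replicate 2 it was -0.38. Added up, MST4 and MST6 gave 12.8, 13.3 and 24.4 RPKM in the mutants, against 7.01, 8.83 and 10.4 RPKM in WT. CIN2 thus stood at 6.19 to 12.5 times this sum in the mutants and at 19.5 to 33.2 times in WT. The sum and this ratio restate the levels given above, and the share of other genes that separate so was not computed for them.

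**Figure D4:**
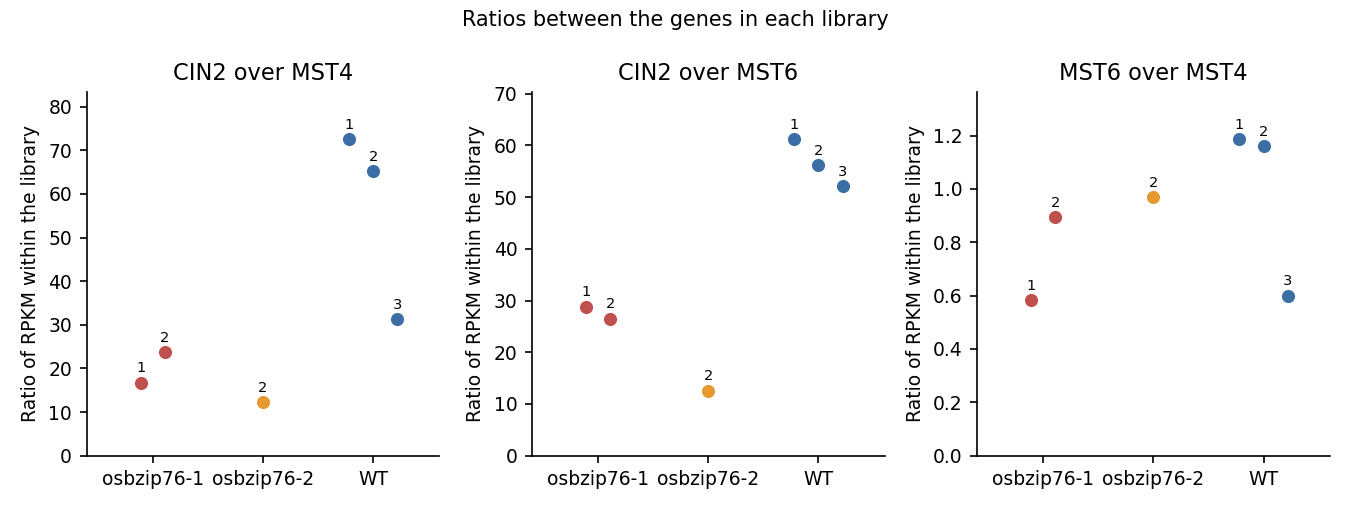
Ratio of RPKM values within each library (vertical axes from 0) for CIN2 over MST4, CIN2 over MST6 and MST6 over MST4, in osbzip76-1, osbzip76-2 and WT, with the replicate number at each point. For CIN2 over MST6 the mutant libraries lie between 12.6 and 28.8 and the WT libraries between 52.1 and 61.1, while the MST6 over MST4 ratios overlap.

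The other members of the transporter family were low or not detected. With all 6 libraries, none of 6 further MST genes passed the filter of 1 RPKM. MST3 passed it without WT replicate 2, and its log2 fold change was then 0.10 with both alleles against WT (limma adjusted p = 0.898). MST3 was the nearest, with 0.633 and 0.906 RPKM in osbzip76-1 libraries and 1.87 RPKM in the osbzip76-2 library, against 0.669, 0.112 and 1.23 RPKM in WT replicates 1 to 3. Its groups overlapped, the osbzip76-2 library was the highest, as for MST4 and MST6, and WT replicate 2 was the lowest with 5 reads. MST5 had 0.757 to 1.01 RPKM in mutant and 0.259 to 0.781 RPKM in WT libraries, with WT replicate 2 again the lowest. MST2 had at most 15 reads and MST1 at most 3 reads in a library. MST7 was above 0 in 1 library only, osbzip76-1 replicate 1, at 0.098 RPKM. From 1 value the number of reads cannot be recovered. MST8 had 0 reads in every library, which allows up to 3 reads in each.

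Of the wider sugar route, little could be named. The list held 58 symbols of invertases, their inhibitors, hexose and sucrose transporters, sucrose synthases and sugar kinases. Besides the MST rows 1 of them, SUT2, was found as a row, since the table gives most genes by identifier only. SUT2 stands for a sucrose transporter, although the gene table used for names holds this symbol for 2 genes. It had 21.4, 21.4 and 20.0 RPKM in the mutants, against 16.9, 15.9 and 18.3 RPKM in WT. The groups did not overlap, as for 9.34% of all genes tested in that direction. The log2 fold change was 0.29 (SE 0.11, limma adjusted p = 0.301).

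The profiles most like those of the 3 genes were sought among 10504 genes with a mean of at least 10 RPKM, by Pearson correlation of log2(RPKM + 1) over the 6 libraries. These correlations are a description: the libraries fall into genotype groups, and genes of a group share its depth and composition. Over 6 libraries many other genes also correlated closely with each of the 3, so the nearest ones named here are not distinctive. For CIN2 the nearest were Os01g0188400 (r = 0.993), Os08g0546400 (r = 0.987) and Os09g0346500 (r = 0.986). All 3 were highest in WT replicate 2 and lowest in osbzip76-1 replicate 1, as CIN2 was. Os09g0346500 was also of like level, with a mean of 195 RPKM in mutant and 281 RPKM in WT libraries. Os01g0188400 and Os08g0546400 differed less, with means of 72.2 and 19.3 RPKM in mutant and 82.4 and 23.1 RPKM in WT libraries. For MST4 the nearest were Os02g0189300 (r = 0.977), Os12g0119800 (r = 0.974) and Os10g0456400 (r = 0.967), and for MST6 Os07g0249900 (r = 0.995), Os05g0209500 (r = 0.992) and Os04g0398600 (r = 0.986). All 6 were highest in the osbzip76-2 library. Os05g0209500 averaged 30.5 RPKM in mutant and 19.7 RPKM in WT libraries and reached 43.6 RPKM in osbzip76-2. Os12g0119800 hardly changed in level, with a mean of 12.3 RPKM in mutant and 11.7 RPKM in WT libraries. No source used here gives these identifiers a name.

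Across other ways of processing, the direction against WT did not change for any of the 3 genes in any of the alternatives run. In some of them it could not, since a filter, or leaving out a library of a group not compared, leaves the fold change as it is. CIN2 with both alleles against WT ranged from -0.76 to -0.53, and its limma adjusted p from 0.0235 to 0.419. It was under the threshold with array weights only, a fit that gives WT replicate 2 a weight of 0.22 and WT replicate 1 one of 3.76. MST4 ranged from 0.65 to 1.10 with a limma adjusted p from 0.0526 to 0.476, and MST6 from 0.33 to 0.92 with one from 0.115 to 0.660.

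**Figure D5:**
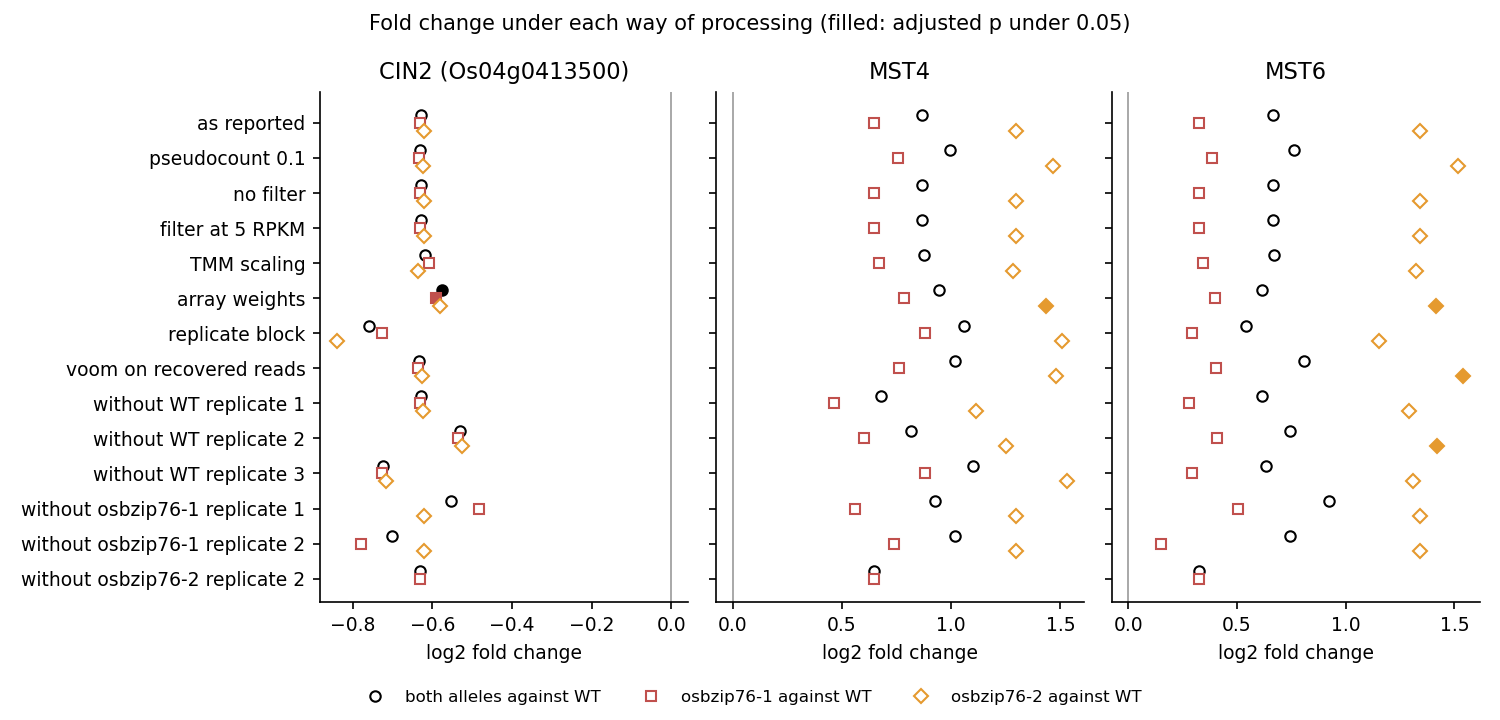
log2 fold change (horizontal axes) of CIN2, MST4 and MST6 under each way of processing (rows), for both alleles, osbzip76-1 and osbzip76-2 against WT. Filled symbols have an adjusted p under 0.05; they appear for CIN2 and MST4 with array weights only, and for MST6 in osbzip76-2 under 3 settings.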

How the data were processed

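Libraries of polyadenylated RNA were prepared with a NEBNext Ultra kit, per the labels' protocols. The authors deposited RPKM values, which scale reads by gene model length and library total. The submitters' processing notes name the genome build IRGSP-1.0. How reads were aligned and counted, and whether strand was used, is not given in the sources used here, so reads of paralogs such as other invertase or MST genes, or of antisense partners, may be shared. Labels list 7 libraries, of which 6 had a column, matched by name. The series description calls the replicates biological, without naming plants, so p-values measure the spread between these libraries.

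RPKM steps gave back whole reads: 100% of 168975 values above 0 were whole within 0.02 reads. Each gene's length was chosen to make its values whole, so for genes above 0 in few libraries this could hardly fail. For such genes, reads and length may both be too small by a common factor. Gene model lengths recovered this way were 2087, 1979 and 1593 bases for CIN2, MST4 and MST6. Binomial intervals and limits (3 counts for a count of 0) cover counting error only. The 21454 genes with a mean of at least 1 RPKM were compared in R 4.3.3 with limma 3.58.1 (eBayes with trend, two-sided) on log2(RPKM + 1), which understates changes of low genes. Both alleles against WT was a 2-group fit, and the other comparisons came from a 3-group fit. P-values were adjusted by Benjamini-Hochberg over all genes tested, with a threshold of 0.05. The scripts were tested on simulated data. Ratios were compared by exact permutation tests (scipy 1.17.1).

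Alternatives were a pseudocount of 0.1, no filter or 5 RPKM, TMM scaling, array weights, the replicate number as a block, voom on recovered reads, and each library left out. The members and lists were chosen with earlier results of these data known. The named genes were the 3 members and the 3 most similar profiles for each member. Sugar route genes found by symbol were named where they passed the threshold or were among the 2 most abundant of their class. The other MST rows and the rows next to CIN2 were described in addition, and the tissue markers came from a list of their own. The name CIN2 for Os04g0413500 came with the choice of genes; the gene table (assembly ASM3414082v1, another build) holds CIN2, with the synonym GIF1, on chromosome 4. It ties no identifier of the other rows to a symbol, and no coordinates are given.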

Additional observations from a re-analysis of the deposited data

How the results depend on the processing

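Over 4 comparisons and 3 genes, 150 gene values were recomputed under alternatives, and 141 kept their direction and their side of the threshold. For some the direction could not change, since a filter, or leaving out a library of a group not compared, leaves the fold change as it is. Without the osbzip76-2 library, both alleles against WT and osbzip76-1 against WT were the same comparison. With both alleles against WT, CIN2 passed with array weights (log2 fold change -0.58, limma adjusted p = 0.0235). With osbzip76-1 against WT it passed with array weights (-0.59, adjusted p = 0.0388). With osbzip76-2 against WT, MST4 passed with array weights (1.43, adjusted p = 0.0397), and MST6 passed with array weights (1.41), voom (1.54) and without WT replicate 2 (1.42). The small difference in CIN2 between the alleles turned negative with TMM scaling (-0.028), with the replicate block (-0.11) and without osbzip76-1 replicate 1 (-0.14); it was 0.16 without osbzip76-1 replicate 2. The ratios between the genes kept their direction (MST6 over MST4, -0.56 to -0.010).

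Counts over all genes moved more. With both alleles against WT 83 genes passed, and 52 without a filter, 48 with a filter at 5 RPKM, 1246 with array weights, 32 with the replicate block and 43 with voom; leaving out 1 library gave 34 to 108 (35 without WT replicate 1, 39 without WT replicate 3, 40 and 34 without osbzip76-1 replicates 1 and 2). For osbzip76-1 against WT 82 passed, and 38 without a filter, 49 at 5 RPKM, 1059 with array weights and 49 with voom; leaving out 1 library gave 17 to 525 (525 without WT replicate 2, 38 and 35 without WT replicates 1 and 3, 17 and 18 without osbzip76-1 replicates 1 and 2). For osbzip76-2 against WT 148 passed, and 29 with a pseudocount of 0.1, 282 without a filter, 41 at 5 RPKM, 658 with array weights and 78 with the replicate block; leaving out 1 library gave 36 to 529 (529 without WT replicate 2, 36 and 55 without WT replicates 1 and 3, 36 and 38 without osbzip76-1 replicates 1 and 2). Between the alleles 46 passed, and 2 with a pseudocount of 0.1, 179 without a filter, 8 at 5 RPKM, 256 with array weights and 21 with voom; leaving out 1 library gave 0 to 264 (264 without WT replicate 2, 8 and 15 without WT replicates 1 and 3). The cause of these moves was not tested. The count of 0 came without either osbzip76-1 library, where each allele has 1 library; limma then had 621 and 782 genes at an unadjusted p under 0.05.

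Pairing by replicate number was unclear. The 2 osbzip76-1 deviations from their mean mirror each other, so correlations with WT ones (-0.14 to 0.14) cannot decide it. edgeR on recovered reads was not run. With 146 to 579 reads per library, the coefficients of variation from counting were 5.02% to 7.98% for MST4 and MST6. Those between libraries of the mutants or of WT were larger, at 12.4% to 50.2%. Counting took its largest part for MST6 in WT, with 7.98% beside 12.4%.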

Other observations

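The gene table places CIN3, another cell wall invertase gene, directly beside CIN2 on chromosome 4, and no row of the table carries that symbol. The rows with the nearest lower identifiers were almost silent. Os04g0413301 was above 0 only in the osbzip76-2 library, at 0.0689 RPKM. Os04g0413200 had 0.154 and 0.352 RPKM in osbzip76-1 replicates 1 and 2 and 0 RPKM in osbzip76-2, against 0.599, 0.311 and 0.193 RPKM in WT replicates 1 to 3. The rows with the nearest higher identifiers did not share the pattern of CIN2, which was lowest in the mutants. Os04g0413600 had 293, 297 and 218 RPKM in the mutants, against 276, 179 and 249 RPKM in WT, with the lowest value in WT replicate 2. Os04g0413900 had 13.8 to 16.2 RPKM in mutant libraries and 7.55 to 12.3 RPKM in WT libraries. These rows were chosen for their place next to CIN2, and none is paired with a symbol.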
